A study of Mus musculus with 2 samples.

Results

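The serum amyloid A and acute phase genes Saa1, Saa2, Saa3, Saa4, Lcn2, Hp, Lbp, Orm1, Cp and Lrg1 were followed in the dorsolateral prostate of mice carrying a miR-32 transgene and of wild-type mice. These 10 genes, of 18952 gene symbols named on the array, were chosen by name and matched through the RefSeq accession of each probe, with earlier values of the same array ratios known. The ratios below are therefore a description of genes picked with them in view. The 10 genes had 13 probes, of which 10 probes of 8 genes were detected, against 10436 detected genes on the whole array. A probe counted as detected when, for 1 of the pools or both, the scanner software called its spot well above background on each array. Orm1 and both probes of Saa4 did not pass.

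Both groups were FVB/N mice of 6 months of age, and the tissue of each was the dorsolateral prostate. The wild-type group was 1 pool of RNA from 6 animals. The other group was 1 pool from 6 animals of genotype ARR2PB-miR32 transgenic, in which miR-32 is driven by ARR2PB, a composite, androgen-responsive form of the rat probasin promoter that drives genes in the epithelial cells of the prostate. The same pair of pools was hybridised to 2 two-colour Agilent arrays with the dyes exchanged. On array 1 the wild-type pool carried Cy5 and the transgenic pool Cy3, and on array 2 the dyes were the other way round. Both arrays repeat the same RNA, so they count as 1 replicate, the spread between them is technical, and the difference between animals was not measured. No p-value is given for this reason. A value "± SD" below is the spread over these 2 arrays.

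Serum amyloid A proteins are small apolipoproteins that ride on high-density lipoprotein. During infection or injury the liver secretes SAA1 and SAA2 in large amounts under the control of interleukin-6, interleukin-1 and tumour necrosis factor, which act through STAT3, C/EBP factors and NF-kB, while SAA3 in the mouse is made largely outside the liver, by macrophages, adipocytes and epithelia, and SAA4 is a constitutive form. The other proteins belong to the same response: lipocalin 2 binds bacterial siderophores, haptoglobin binds free haemoglobin, LBP hands lipopolysaccharide to CD14, orosomucoid 1 is a plasma carrier of small lipophilic molecules, ceruloplasmin is a copper-carrying ferroxidase, and LRG1 is a leucine-rich glycoprotein that modulates TGF-beta signalling. In glandular epithelia several of them are secreted onto the mucosal surface as part of innate defence.

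The transgene encodes miR-32, whose mature 5p strand is printed here from RefSeq because it is the agent that separates the groups. It lies at chr4:56895272-56895293 on the minus strand of assembly GRCm38.p6, and the capitals mark its seed, bases 2 to 8.
mmu-miR-32-5p: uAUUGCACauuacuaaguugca

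The promoters of the serum amyloid A genes and of Lcn2 are printed because these genes moved together on the arrays or, for Saa4, lie among those that did. Each is the 250 bases before the RefSeq start of the gene on GRCm38.p6, written 5′ to 3′ along the gene. Capitals mark matches to TTNNGCAA, a shortened C/EBP motif, on either strand.
Saa1, chr7:46742981-46743230, minus strand: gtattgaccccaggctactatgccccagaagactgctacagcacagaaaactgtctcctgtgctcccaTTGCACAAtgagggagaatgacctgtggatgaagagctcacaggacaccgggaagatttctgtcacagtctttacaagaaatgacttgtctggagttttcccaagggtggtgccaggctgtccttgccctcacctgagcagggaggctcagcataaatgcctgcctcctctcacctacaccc
Saa2, chr7:46751583-46751832, plus strand: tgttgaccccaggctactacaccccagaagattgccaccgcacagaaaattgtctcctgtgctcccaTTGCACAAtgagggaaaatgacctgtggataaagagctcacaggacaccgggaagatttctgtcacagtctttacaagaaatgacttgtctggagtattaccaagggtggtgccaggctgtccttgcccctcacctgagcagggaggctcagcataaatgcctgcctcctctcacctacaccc
Saa3, chr7:46715677-46715926, minus strand: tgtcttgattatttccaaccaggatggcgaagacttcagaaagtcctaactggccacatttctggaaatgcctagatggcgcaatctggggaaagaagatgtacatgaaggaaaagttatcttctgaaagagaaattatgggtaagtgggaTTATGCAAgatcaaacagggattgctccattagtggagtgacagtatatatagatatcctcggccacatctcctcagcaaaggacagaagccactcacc
Saa4, chr7:46732604-46732853, minus strand: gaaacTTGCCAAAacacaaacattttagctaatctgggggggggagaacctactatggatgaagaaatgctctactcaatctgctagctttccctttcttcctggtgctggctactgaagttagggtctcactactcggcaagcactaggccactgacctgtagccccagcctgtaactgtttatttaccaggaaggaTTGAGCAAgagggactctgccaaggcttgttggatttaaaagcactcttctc
Lcn2, chr2:32387740-32387989, minus strand: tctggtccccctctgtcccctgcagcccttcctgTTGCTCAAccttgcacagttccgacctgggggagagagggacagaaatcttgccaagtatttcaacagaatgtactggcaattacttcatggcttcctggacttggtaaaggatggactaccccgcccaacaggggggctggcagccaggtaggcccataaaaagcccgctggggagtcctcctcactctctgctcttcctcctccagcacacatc

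The Saa1 and Saa2 promoters were 94.8% identical, with 11 mismatches and 2 gap columns, whereas every other pair of serum amyloid A promoters was between 42.6% and 48.9% identical. The Saa1 and Saa2 matches were the same 8 letters, TTGCACAA as read along the gene, and their first bases lay 182 and 183 bases before the start. Saa3 held TTATGCAA from base 99 before its start and Lcn2 held TTGCTCAA from base 216. Saa4 held 2 matches, TTGCCAAA and TTGAGCAA, from bases 245 and 52. RefSeq promoters were matched for 7 of the 10 genes, with 2 starts for Cp, and not for Hp, Lbp or Orm1. The C/EBP motif was in 6 of these 8 promoters, the exceptions being Lrg1 and 1 start of Cp, against 9.56% of all 32851 promoters in the table. These 8 are not independent, since the Saa1 and Saa2 promoters are nearly identical and the 2 Cp windows overlap. The STAT motif TTCNNNGAA was in 0 of 8 against 7.02% of all promoters, and the NF-kB core GGGANTTTC was in 0 of 8 against 0.941%. Such short matches describe the letters in this window and show no bound factor. Saa4 carries the C/EBP letters and was not detected.

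Of the 8 detected genes, 6 were at least 1.5-fold lower in the transgenic pool on each array, 0 were at least 1.5-fold higher and 2 met neither. Among all 10436 detected genes, 1.3% were lower by this rule and 0.91% were higher. The 6 were Saa1, Saa2, Saa3, Lcn2, Hp and Lbp, and the other 2 were Cp and Lrg1. At 2-fold on each array 5 of the 8 were lower, against 0.355% of all detected genes. Because the genes were chosen with these ratios known, nothing is read from the gap between these shares. Lcn2 and Hp also passed the detection rule only through the wild-type pool, so a lower value in the transgenic pool was built into their passing. Of the 6 genes detected in both pools on both arrays, 4 were lower, Saa1, Saa2, Saa3 and Lbp, against 1.24% of the 6134 genes detected that way. The median log2 ratio of the 8 detected genes was −1.52, with −1.47 on array 1 and −1.49 on array 2, beside −0.06 for all detected genes.

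**Figure D1:**
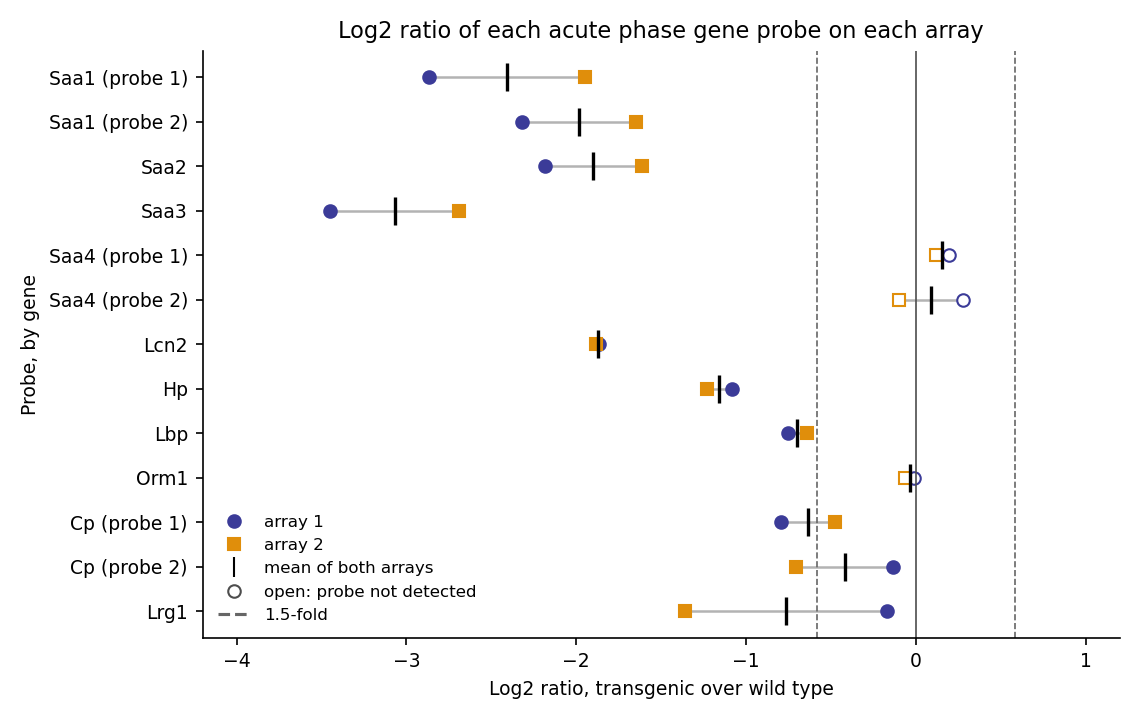
Log2 ratio of transgenic over wild type (x axis) for each of the 13 probes (y axis), with circles for array 1, squares for array 2, a black bar for their mean, open symbols for probes that were not detected and dashed lines at 1.5-fold. All Saa1, Saa2, Saa3 and Lcn2 points lie below −1.6, while Lrg1 spreads from −1.36 to −0.17 and the undetected Saa4 and Orm1 probes lie near 0.

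Saa3, the serum amyloid form made by macrophages, fat and epithelia, had the lowest ratio of the 10 genes. Its normalized log2 signal was 10.89 in the wild-type pool and 7.44 in the transgenic pool on array 1, and 10.71 and 8.02 on array 2. Both wild-type values lay above both transgenic values, and the wild-type pool was the brighter one whichever dye it carried. The log2 ratios were −3.45 and −2.69, with a mean of −3.07 ± 0.54 (SD, 2 arrays), or 8.39-fold lower in the transgenic pool. Its rank was 4 from the lowest among the 10436 detected genes. The spot itself read 2823 over a local background of 117 for wild type and 172 over 24 for the transgenic pool on array 1, and 2548 over 25 against 158.5 over 127 on array 2. The transgenic spot was called well above background on both arrays, but on array 2, where the transgenic pool carried Cy5, it stood only just over its surround.

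Saa1, an acute phase serum amyloid of the liver and of epithelia, was measured by 2 probes. On the brighter probe, whose values stand for the gene, the log2 signal was 10.40 in wild type and 7.53 in the transgenic pool on array 1, and 10.37 and 8.42 on array 2. The pools did not overlap, and after normalization the wild-type signal was nearly the same on both arrays while the transgenic signal differed. The transgenic spot itself read 184.5 over a local background of 25 on array 1 and 189 over 126 on array 2. The log2 ratios were −2.87 and −1.95, giving −2.41 ± 0.65 (SD, 2 arrays), or 5.31-fold lower. The other Saa1 probe gave −2.32 and −1.65, a mean of −1.98 ± 0.48 or 3.96-fold lower, and in the transgenic pool it was above background on 1 array. Both probes of the gene passed the size rule in the same direction.

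Saa2, the near-identical neighbour of Saa1, had log2 signals of 9.74 in wild type and 7.55 in the transgenic pool on array 1, and 9.69 and 8.08 on array 2. Again every wild-type value lay above every transgenic value. The transgenic spot of Saa2 read 186.5 over a local background of 28 on array 1 and 168.5 over 127.5 on array 2. It was called well above background on both arrays, but on array 2 it stood little over its surround. The ratios were −2.19 and −1.61, with a mean of −1.90 ± 0.40 (SD, 2 arrays), or 3.73-fold lower. Saa1 and Saa2 transcripts are so alike that a probe for one can bind the other, and RefSeq lists each symbol as a synonym of the other. How far the 3 probes tell the genes apart was not tested, so the values are those of the probes, and the share of either gene in them is uncertain. Probe sequences and protein sequences were not used here.

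Saa4, the constitutive serum amyloid, lies between Saa3 and Saa1 in the same cluster and was not detected. In the wild-type pool its first probe read 135.5 over a background of 115 on array 1 and 42 over 25.5 on array 2. In the transgenic pool it read 53 over 25 and 136.5 over 124, and it was above background there on 1 array. The second probe was above background in neither pool on either array. Their mean log2 ratios, 0.16 and 0.09, come from signals near background and give no direction for the gene.

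**Figure D2:**
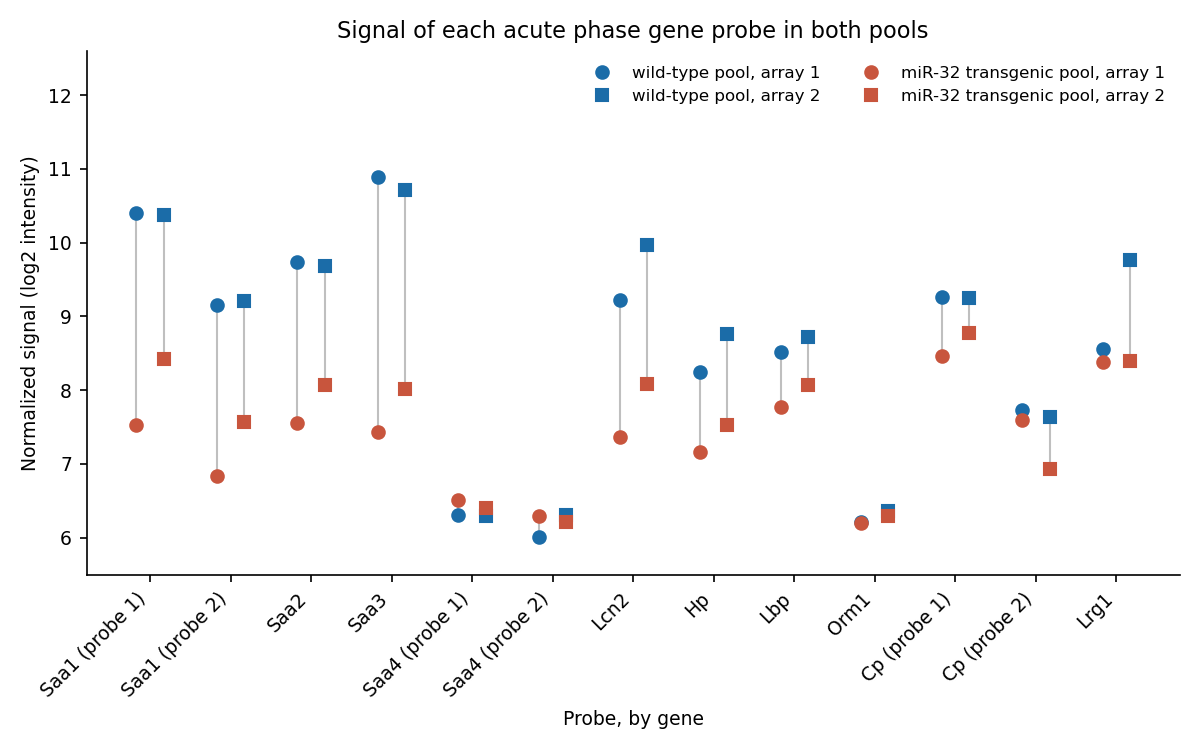
Normalized log2 intensity (y axis) of each of the 13 probes (x axis), in blue for the wild-type pool and red for the transgenic pool, with circles for array 1 and squares for array 2. For each of the 10 detected probes both wild-type points lie above both transgenic points, by little for Cp and Lrg1. Heights are not comparable between genes, since each probe has its own response.

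Lcn2 encodes lipocalin 2, an antibacterial siderophore trap that epithelia and neutrophils secrete. Its log2 signal was 9.23 in wild type and 7.36 in the transgenic pool on array 1, and 9.97 and 8.08 on array 2. The transgenic spot was above background on array 1, at 157 over 27, and not on array 2, at 150.5 over 111, so the ratio of array 2 rests on a background-level value. The ratios were −1.86 and −1.88, with a mean of −1.87 ± 0.01 (SD, 2 arrays), or 3.66-fold lower. This SD does not carry the uncertainty of the background: the scanner software's ratios for the same spots were −2.68 and −3.03.

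Hp encodes haptoglobin, the plasma scavenger of haemoglobin, which fat and lung also make. Its log2 signal was 8.25 in wild type and 7.17 in the transgenic pool on array 1, and 8.76 and 7.53 on array 2. Both wild-type values were above both transgenic ones. The ratios were −1.09 and −1.23, with a mean of −1.16 ± 0.10 (SD, 2 arrays), or 2.23-fold lower. As for Lcn2, the transgenic spot was above background on array 1 alone, with 138.5 over 121 on array 2, so the size of the fold and the rank of the gene are approximate. The scanner software's ratios were −1.44 and −1.72.

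Lbp, which encodes the lipopolysaccharide-binding protein, had log2 signals of 8.52 in wild type and 7.77 in the transgenic pool on array 1, and 8.71 and 8.07 on array 2. The pools did not overlap, but the gap was small. The ratios were −0.76 and −0.64, with a mean of −0.70 ± 0.08 (SD, 2 arrays), or 1.62-fold lower. Its call ended with no background subtraction, where array 2 gave −0.37, with the scanner software's ratios, where array 2 gave −0.28, and in the authors' deposited table, where array 2 gave −0.31.

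Cp, which encodes ceruloplasmin, and Lrg1 did not pass the size rule. The brighter Cp probe had log2 signals of 9.26 and 8.47 in the wild-type and transgenic pools on array 1, and 9.25 and 8.77 on array 2. The ratios, −0.79 and −0.48, straddled the 1.5-fold line, with a mean of −0.64 ± 0.22 (SD, 2 arrays), while the other Cp probe straddled it the other way with −0.14 and −0.70. Lrg1 differed most between arrays: its log2 signals were 8.55 in wild type and 8.38 in the transgenic pool on array 1, and 9.76 and 8.40 on array 2. The transgenic values were alike only after normalization: that spot read 344 over a local background of 23 on array 1 and 187 over 122 on array 2. The ratio was −0.17 on array 1 and −1.36 on array 2, a mean of −0.76 ± 0.84. In the scanner software's ratios both genes passed the rule, with −0.78 and −0.83 for Cp and −0.76 and −0.83 for Lrg1. Just inside the threshold stood Lbp, and just outside it Cp.

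Orm1, which encodes orosomucoid 1, was above background in neither pool on either array. Its spot read 128 over 116 in the wild-type pool on array 1 and 45.5 over 25 on array 2. The transgenic spot read 32 over 22 and 121.5 over 114.

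In order from the lowest mean ratio the detected genes were Saa3, Saa1, Saa2, Lcn2, Hp, Lrg1, Lbp and Cp. The ranges over both arrays of neighbours in this order overlapped, except between Lcn2 and Hp, whose ranges were separated and whose means differed by 0.71. Within each array, however, Saa3 was lowest, then Saa1, then Saa2, and this order held on each array under every alternative that gave both arrays. Saa2 and Lcn2 changed places between the arrays. The ranks among all detected genes were 7 for Saa1, 18 for Saa2, 19 for Lcn2, 89 for Hp, 229 for Lrg1, 290 for Lbp and 367 for Cp.

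**Figure D3:**
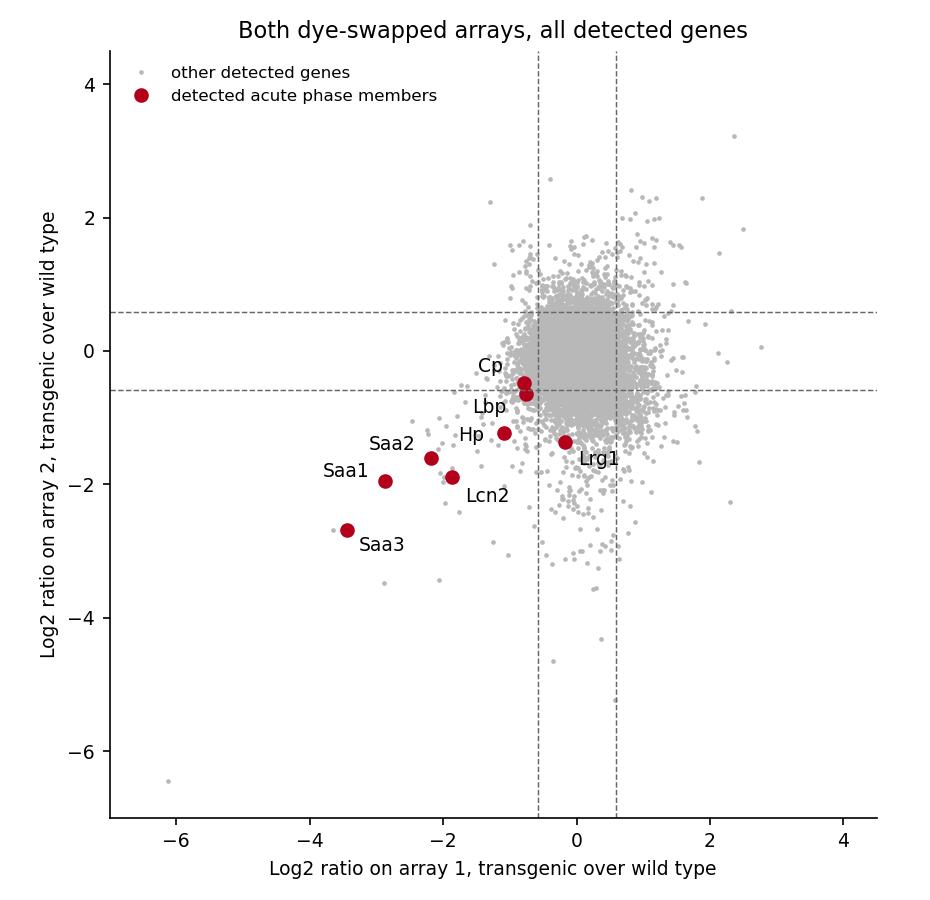
Log2 ratio of transgenic over wild type on array 1 (x axis) and array 2 (y axis) for all detected genes in grey and the 8 detected acute phase genes in red, with dashed lines at 1.5-fold. Saa3, Saa1, Saa2, Lcn2 and Hp lie in the lower left, below the line on each array. Lbp lies just below the line on each array, while Lrg1 is far below it on array 2 alone.

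The arrays themselves limit what smaller ratios can show. Across all detected genes the log2 ratios of the 2 arrays had a Pearson r of −0.03, a correlation across genes, which are not independent replicates. The number of genes that passed the size rule with the dye, with opposite signs on the turned arrays, was 318, against 136 lower and 95 higher with the genotype. The transgenic pool was above background for 57.9% of probes in Cy3 on array 1 and for 20.8% in Cy5 on array 2, so dim spots of that pool were read less well on array 2. As a check of the tissue, all 10 genes listed as dorsolateral prostate secretory products were detected. Of 8 seminal vesicle products, 6 were above background in neither pool on either array. The list does not separate products by prostate lobe, so this check does not tell the lobes apart. Of these 10 secretory products, all detected in both pools, 6 were lower and 1 was higher, with a median of −1.40. Spink1 had a mean log2 ratio of −6.29 ± 0.23 and Sbp of −3.18 ± 0.42, both lower. Spink5 at −3.17 ± 0.69, Sbpl, named after its value was seen, at −2.06 ± 1.14 and Pigr at −1.94 ± 0.07 were also lower, and Pnliprp1 was higher at 2.09 ± 0.29, a call that ended with median centring. The part of these secretory products in the result was not tested. Msmb was lower at −0.86 ± 0.37, though not with no background subtraction, scaled ratios or the scanner software's or deposited ratios, while Pbsn at 0.54 ± 1.21 and Tgm4 at 0.70 ± 0.64 met neither rule. The single seminal vesicle gene detected, Ceacam10, was lower at −1.36 ± 0.14 and passed detection only through the wild-type pool. The miR-32 transcript has no probe among those named here, so the transgene was not checked.

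Other acute phase plasma proteins, a list chosen by function, did not move as a block. Of 35 genes on the array 15 were detected, of which 4 were lower, 1 was higher and 10 met neither, with a median log2 ratio of −0.44 beside −0.06 for all detected genes. Reg3g, an antibacterial lectin of epithelia, gave −2.87 and −1.94, a mean of −2.41 ± 0.65, and was above background in the transgenic pool on 1 array. Its relative Reg3b gave −1.67 and −0.77 and was above background in wild type alone, so its mean of −1.22 ± 0.64 is a ratio to background signal. Complement C3, the central component of the complement cascade, was lower at −1.02 ± 0.25 and was measured in both pools. Serping1, the C1 inhibitor, met neither rule at −1.12 ± 0.96. The remaining calls, named after their values were seen, were the iron-binding protein Ltf at −0.78 ± 0.12, above background in the transgenic pool on 1 array, and the metallothionein Mt1, higher at 0.69 ± 0.10. The median of the list changed sign with the processing, being 0.50 in the authors' deposited table and 0.18 over genes detected in both pools, where 1 gene each was lower. With the scanner software's ratios it was −1.09, with 8 genes lower and 0 higher, and Mt1 also lost its call with no background subtraction, with the smaller normexp offset, with median centring and with scaled ratios.

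Classic liver products were mostly not detected in either pool. The pentraxins Crp and Apcs, the fibrinogen chains Fga, Fgb and Fgg, and haemopexin (Hpx) were among 15 genes of that list above background in neither pool on either array. Of 10 negative acute phase proteins, which fall in plasma during the response, 3 were detected: Rbp4, the retinol carrier, was lower at −0.88 ± 0.19, with the transgenic pool above background on 1 array, and Trf at −0.19 ± 0.13 and Apof at 0.18 ± 0.62 met neither rule. Rbp4 lost its call without background subtraction. Alb, Ttr, Ahsg, Apoa1, Apoa2 and Serpina6 were above background nowhere.

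The upstream pathways held no gene past the size rule in the main processing. Of 27 genes of the IL-6 family and STAT3 pathway on the array, 19 were detected, 0 were lower and 0 higher, and the median was −0.11. Cebpd, a C/EBP factor induced in the acute phase, gave −1.06 and −0.45, a mean of −0.75 ± 0.43, and passed on array 1 alone. Il6st, the shared signalling receptor gp130, gave −0.53 ± 0.12, Tyk2 gave −0.52 ± 0.22 and Junb gave 0.78 ± 1.23. Stat3 and its feedback target Socs3, named though not among the largest ratios of the list, had means of 0.19 ± 0.51 and −0.11 ± 0.23. Socs3 passed detection only through the wild-type pool. The cytokines Il6, Osm, Il11 and Il22 were above background nowhere.

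Of 45 genes of the IL-1, TNF, IL-17 and NF-kB pathway on the array, 31 were detected, again with 0 lower and 0 higher and a median of −0.14. The largest mean ratios were 0.60 ± 0.09 for the kinase Map3k7, −0.54 ± 0.29 for the chemokine Cxcl16, −0.51 ± 0.21 for the receptor subunit Il1rap and −0.51 ± 0.71 for the inhibitor Nfkbia. The cytokines Il1a, Il1b, Tnf and Il17a were above background nowhere. Low cytokine signal in bulk tissue sets no limit on a few secreting cells. In the scanner software's ratios 5 genes of the IL-6 list and 6 of the NF-kB list were lower.

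Receptors and binding partners of these proteins held 15 detected genes of 23, with 0 lower, 0 higher and a median of −0.28. Scarb1, a high-density lipoprotein receptor that also binds serum amyloid A, gave −0.57 ± 0.42. The haptoglobin-haemoglobin receptor Cd163 gave −0.40 ± 0.14, the lipocalin 2 receptor Slc22a17 gave −0.32 ± 0.42 and Tgfbr1 gave −0.31 ± 0.67. Scarb1 and Cd163 were among the genes of this list that passed detection only through the wild-type pool. The formyl peptide receptors Fpr1 and Fpr2, which bind serum amyloid A on leukocytes, were above background nowhere. Genes of iron and copper handling, the metals that lipocalin 2, haptoglobin and ceruloplasmin keep in check, held 15 detected of 16, with 0 lower, 0 higher and a median of −0.12. The copper pump Atp7b gave 0.67 ± 0.26, Ftl1 gave −0.53 ± 0.72, Heph gave −0.51 ± 0.50 and Ncoa4 gave −0.50 ± 0.74. In the scanner software's ratios 4 genes of the receptor list were lower, and 2 of the metal list were lower and 1 higher.

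Markers of cell types that make these proteins moved with them in part. In bulk RNA, fewer cells of a type and less RNA per cell cannot be told apart. Of 14 adipocyte markers 13 were detected, 6 were lower and 0 higher, and all 13 means lay below 0, with a median of −0.89. The fat-secreted protease Cfd gave −2.75 ± 0.96, the fatty acid carrier Fabp4 gave −2.13 ± 0.22, Car3 gave −2.04 ± 1.43 and the hormone Adipoq gave −1.81 ± 0.08. Their summed normalized signal was 11307 and 11977 in wild type on arrays 1 and 2, against 5270 and 4075 in the transgenic pool, and Lep was above background nowhere. On the probe used for each gene, Cfd, Car3, Adipoq, Acsl1, Retn, Plin1 and Lipe passed detection only through the wild-type pool. A lower value was built into their passing. Of the others, detected in both pools, Fabp4 and Cidec were lower. Lpl at −0.89, Plin4 at −0.15, Pparg at −0.15 and Pnpla2 at −0.08 met neither rule. Fat cells make Saa3, Hp and Lcn2, and their part in the result was not tested.

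Of 14 macrophage and monocyte markers 13 were detected, 5 were lower and 0 higher, and the median was −0.61, no mean being above 0. Of these 13, 8 passed detection only through the wild-type pool, so a lower value was built into their passing, and of the 5 detected in both pools 2 were lower, Cd74 and C1qc, with a median of −0.55. The antigen-presentation chain Cd74 gave −2.09 ± 0.47, Lyz1 gave −1.57 ± 0.21, Ctss gave −1.17 ± 0.12 and C1qc gave −0.75 ± 0.23, the last losing its call with scaled ratios, in the scanner software's ratios and in the authors' deposited table. The summed signal was 4550 and 6304 in wild type against 2248 and 2693 in the transgenic pool. Of 6 B and plasma cell markers 2 were detected, Jchain at −1.94 ± 0.16, which was lower, and Cd79b at −0.63 ± 0.39, with a summed signal of 881 and 877 against 269.7 and 282. Both passed detection only through the wild-type pool. Of 10 T and NK cell markers, 4 were detected and 1 was lower, Ccl5 at −0.74 ± 0.06, a call that ended with no background subtraction, and all 4 passed detection only through the wild-type pool. The part of these cells in the result was not tested.

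Neutrophil and hepatocyte markers were mostly at background. None of 9 neutrophil markers was detected, and Camp, Csf3r, Cxcr2, Elane, Mmp8 and Ngp were above background nowhere. Of 7 hepatocyte markers 2 were detected, Cyp2e1 at −0.69 ± 0.25 and Tat at 0.01 ± 0.10, and neither passed the rule, while the defining genes Alb, Apoa1, Apob, Cps1 and Ttr were above background nowhere. Epithelial and stromal markers were well detected. Of 13 luminal prostate markers all were detected, 1 was lower, Hoxb13 at −0.69 ± 0.03, and the median was −0.12. Their summed signal was 51017 and 43845 in wild type against 50482 and 41494 in the transgenic pool. All 10 basal epithelial markers were detected with 0 lower and 0 higher. Among 10 detected proximal luminal and progenitor markers 1 was lower, Ly6a at −1.55 ± 0.66. The fibroblast, smooth muscle and endothelial lists held 0 lower and 0 higher.

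**Figure D4:**
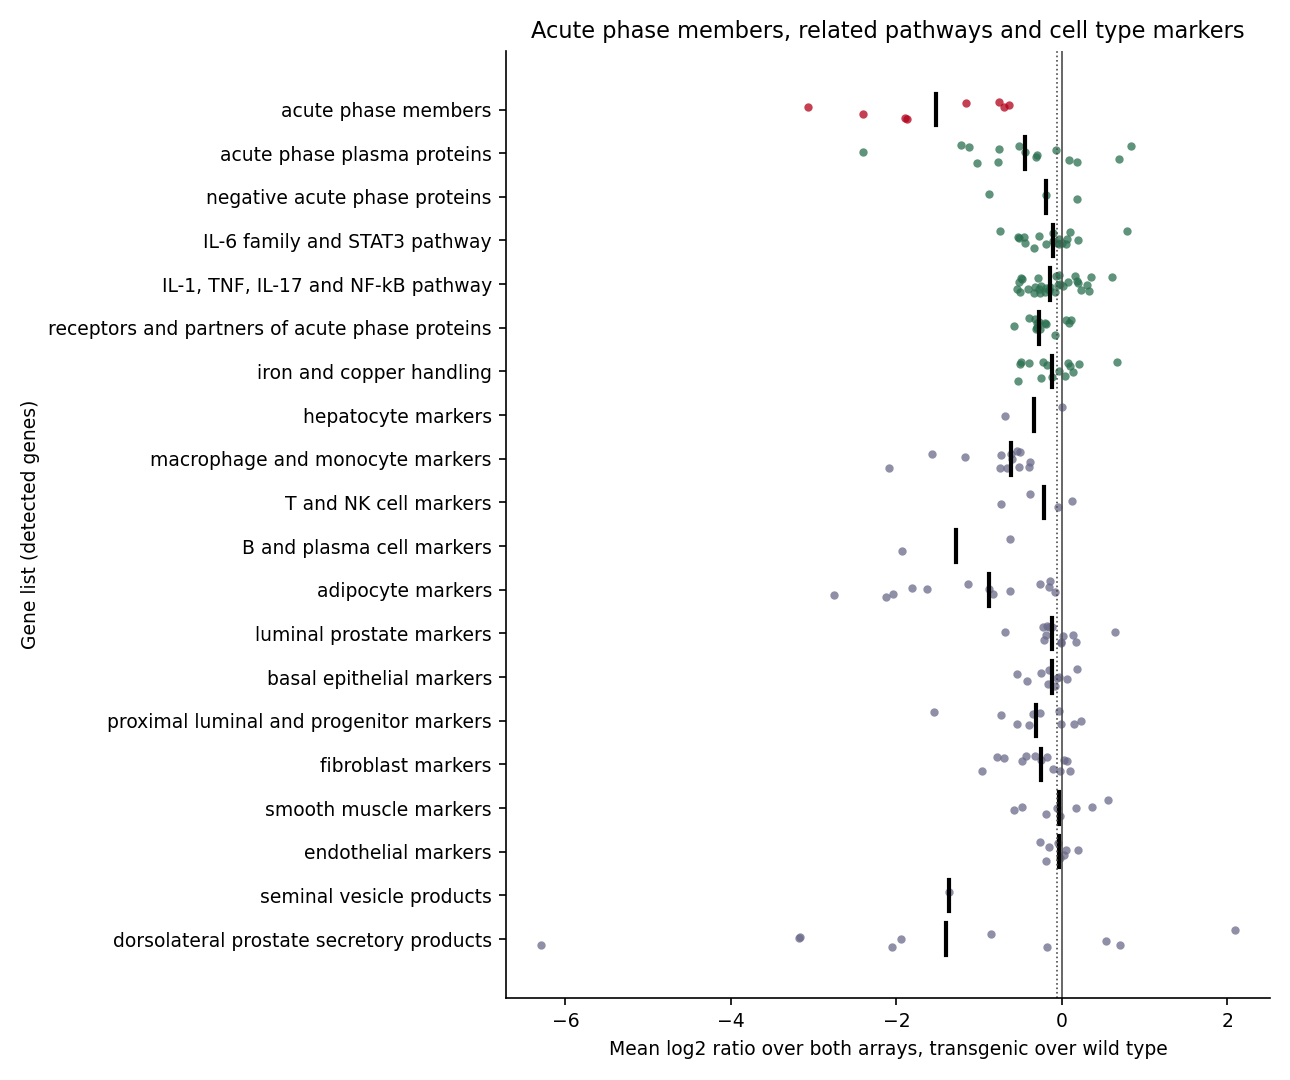
Mean log2 ratio of transgenic over wild type (x axis) of each detected gene in the acute phase set, the 6 pathway lists and the marker lists (y axis), 1 point a gene. The acute phase set, the adipocyte markers and the macrophage markers lie entirely below 0. So do the 2 detected B and plasma cell markers and the 1 detected seminal vesicle gene. Among all 10436 detected genes, 6198 means lay below 0. The genes of both cytokine pathways spread on either side of 0. Black bars are medians, the dotted line is the median of all detected genes, and the neutrophil list is absent because none of its genes was detected.

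The genes whose pair of ratios lay nearest the average of the 6 lower acute phase genes, −2.03 on array 1 and −1.67 on array 2, were found by Euclidean distance over these 2 values. Jchain, which joins polymeric immunoglobulin, was nearest, with −2.05 and −1.82. Adipoq had −1.87 and −1.75, and the chemokine Ccl8 had −2.08 and −1.48. In the transgenic pool each of these 3 was above background on 1 array. Pigr, the epithelial receptor that carries IgA into secretions, had −1.99 and −1.89 and was measured in both pools. Ssr2, a subunit of the translocon-associated complex, had −2.01 and −1.39, but its call ended in the scanner software's ratios and in the authors' deposited table.

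Genes that flank the serum amyloid A cluster were not past the size rule. RefSeq places Saa3, Saa4, Saa1 and Saa2 in a row, and the window of 5 genes on each side was chosen after the values of the cluster were seen. Saal1, next to Saa3, gave 0.23 and 0.24. Hps5, next to Saa2, gave −0.38 and 0.23, followed by the transcription factor subunit gene Gtf2h1 with a mean of 0.55 ± 0.20, Ldha with −0.08 ± 0.02 and Tsg101 with −0.24. On the Saa3 side Sergef had a mean of 0.04 ± 0.09, and Myod1, Kcnc1, Tph1 and, on the other side, Ldhc were not detected. Among the detected genes of this stretch, those past the rule were Saa3, Saa1 and Saa2.

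**Figure D5:**
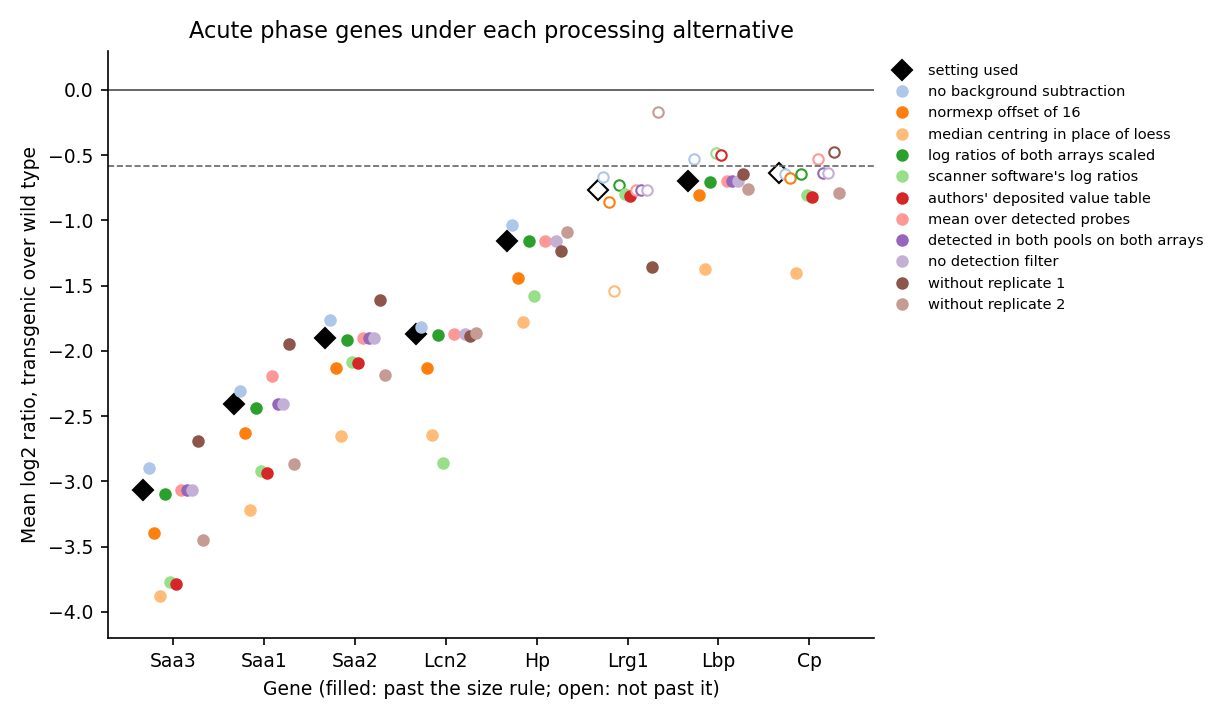
Mean log2 ratio of transgenic over wild type (y axis) of each detected gene of the set (x axis), as a diamond in the processing used and as coloured circles under each alternative, filled where the gene passed the size rule on each array used and open where it did not. Saa1, Saa2, Saa3, Lcn2 and Hp are filled under each alternative that gave a value, while Lbp, Cp and Lrg1 have open and filled symbols. The dashed line is 1.5-fold.

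Saa3 ranged from −3.88 to −2.69 over its 11 alternatives, Saa1 from −3.22 to −1.95 and Saa2 from −2.65 to −1.61. Lcn2 ranged from −2.86 to −1.82 and Hp from −1.78 to −1.03 over their 9. These 5 genes were lower under every one of these alternatives, some of which could not change the call. Leaving out an array could not undo a call that both arrays had passed. For the single-probe genes Saa2, Saa3, Lcn2 and Hp, the probe mean and the dropped detection filter returned the same value. Lbp was lower under 8 of 11, Cp under 4 and Lrg1 under 3. In the authors' deposited table, which holds 6 probes of the set, Saa3 had −3.74 and −3.83, Saa1 had −3.11 and −2.77, and Saa2 had −2.33 and −1.86 on arrays 1 and 2. For these 6 probes the deposited values were nearly the scanner software's ratios, which were −3.74 and −3.81 for Saa3. The deposited and scanner ratios are therefore not separate checks of these genes.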

How the data were processed

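Total RNA of dorsolateral prostate was labelled from 100 ng and hybridised to both arrays, per the labels' protocols. The deposited scanner files hold median spot and local background intensities in each dye and a log10 ratio of Cy5 over Cy3 that the scanner software (Feature Extraction, version 11.0.1.1) computed, per the file headers. Log2 ratios of 8533 probes stand in the authors' deposited value table, with a filter not stated in the sources used here.

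Background was removed by normexp (offset 50) and dyes were balanced by loess within arrays, with control and outlier spots at weight 0, in limma 3.58.1 and R 4.3.3. Spots of a probe were averaged, and every ratio was turned to transgenic over wild type from the dyes in the labels. A gene took its brightest detected probe. A probe with several spots counted as above background when most of its spots were. A gene was lower or higher when both arrays passed 1.5-fold with the same sign, with no p-value. A gene above background in 1 pool only has a bound where its own signal lies below the lowest signal well above background. The scripts were tested on simulated data. Accessions matched RefSeq GRCm38.p6 symbols for 27816 probes and none for 13358, and the array annotation cites another build, so probes have no coordinates here, and those of the printed sequences are RefSeq's. The number of arrays limits the precision, and no spot was saturated.

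The members and gene lists were chosen with earlier results of these data known. Named genes are all members, from each list up to 4 detected genes whose mean ratio was farthest from 0, the 5 nearest genes, the tissue check genes, and others where said. Some genes allowed by this rule are left unprinted. Alternatives changed the background correction, the normalization, the source of signal, the probe summary, the detection filter, the size rule and the arrays used. Plots were made with matplotlib 3.10.9, and tables and promoter alignments were made with pandas 2.3.3, numpy 2.4.6 and biopython 1.88 in Python 3.11.15.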

Additional observations from a re-analysis of the deposited data

How the results depend on the processing

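Between 4 and 7 of the detected acute phase genes were lower under the alternatives, against 6 of 8 in the main processing. Their median of −1.52 became −1.40 with no background subtraction, −1.79 with a normexp offset of 16, −2.21 with median centring in place of loess, −1.83 with the scanner software's ratios, −1.46 in the authors' deposited table, −1.33 over genes detected in both pools and −0.96 with no detection filter, and lay between −1.49 and −1.47 with either array left out. Median centring moved the median of all detected genes from −0.06 to −0.57, and relative to it the acute phase median was −1.64, against −1.46 in the main processing. The 136 genes lower and 95 higher among all detected genes became 554 and 2 with median centring, 626 and 247 with the scanner software's ratios, 240 and 149 with the smaller offset, 119 and 178 in the deposited table, 76 and 94 over genes detected in both pools, 128 and 65 with probe means, and 37 and 25 at 2-fold. With array 2 alone they were 1570 and 544, and with array 1 alone 558 and 845. Of 84 values of single acute phase genes under alternatives, 74 kept their direction and their side of the size rule, 3 lost the call, 7 gained one and 0 reversed. Part of these values could not lose a call, since leaving out an array keeps any call that both arrays passed. Single-probe genes also kept their value with probe means and with no detection filter. For other named genes 607 of 744 kept both, counting a gene that met neither rule only if it also stayed within its SD. Of the rest, 12 lost a call, 58 gained one and 67 moved beyond that SD or changed sign with no call in the main processing. None of the 744, that is 0, reversed a call. The cause of these shifts was not tested. The transgenic pool was dim in Cy5 on array 2, at a median of 10 intensity units over background against 22 in Cy3 on array 1. That limits the ratios of Lcn2, Hp and the second Saa1 probe. It also limits those of Saa3 and Saa2, whose transgenic spots on array 2 read 158.5 over 127 and 168.5 over 127.5. The design holds no measure of variation between animals.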
